A study of Mus musculus with 2 samples.

Results

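Neutrophils that carry transcripts of the secondary granule proteins Camp, Ngp and Ltf made up 200 of the 12968 cell barcodes kept from sorted mouse lung, and all 200 came from 7-day-old animals. They were chosen as barcodes with at least 500 genes, at least 1000 unique molecular identifiers (UMIs, the count of distinct captured transcripts) and at most 10% mitochondrial UMIs, in which Camp, Ngp and Ltf together gave at least 1% of the gene UMIs. They are called granule cells here. The cells they are described against, called other neutrophils, had at least 1% of their UMIs from S100a8 and S100a9, the calprotectin subunits that neutrophils hold in bulk, but less than 1% from the 3 granule genes. There were 1848 of these.

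The cells came from lungs of zbtb46-cre x rosa26-yfp mice aged 7 days (neonatal) or 8 weeks (adult), sorted as live CD45.2+ YFP+ cells and profiled by droplet single-cell RNA sequencing. In this cross YFP marks cells that expressed Zbtb46, a transcription factor of classical dendritic cells, or that descend from such cells, so that YFP does not say that a cell still expresses it. There were 2 pools per age, each of at least 5 mice, and the pool is the replicate throughout. The pools of 1 age were tagged and loaded together, so age cannot be told apart from the loading, nor from the sex of the animals, since the female transcript Xist gave 711 and 612 CPM (the share of a gene in a sum's UMIs, scaled in the usual way) in neonatal pools and only 0.233 and 0.129 in adult ones. Gene UMIs summed to 20346024 and 19549992 in the neonatal and 8993471 and 8172362 in the adult pools, and 4518, 4531, 2051 and 1868 barcodes were kept from them.

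Neutrophils fill their granules in an order during development in the bone marrow. Promyelocytes make the primary (azurophil) granule proteins such as Mpo and Elane, myelocytes and metamyelocytes make the secondary (specific) granule proteins, and band cells and segmented cells make gelatinase granules and secretory vesicles. Camp encodes cathelicidin, an antimicrobial peptide precursor, Ltf encodes the iron-binding lactoferrin, and Ngp encodes a cystatin-like granule protein. The transcription factor C/EBPε, from the gene Cebpe, is required for secondary granule genes, and the transcripts are lost again as neutrophils mature.

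The 3 genes that define the cells lie near each other on chromosome 9 in GRCm38 (GENCODE M21), with Camp at chr9:109847379-109849617 on the minus strand, Ngp at chr9:110419747-110423012 on the plus strand and Ltf at chr9:111019271-111042767 on the plus strand. The bases just before each start site are shown because these 3 genes define the cells. They are RefSeq sequence of GRCm38.p6, trimmed where the window met a transcript, 5′ to 3′ on the gene's own strand, and cover chr9:109849618-109849706 for Camp, chr9:110419558-110419746 for Ngp and chr9:111019042-111019270 for Ltf. Capitals mark matches, on either strand, to the C/EBP motif TTNNGNAA, whose reverse complement is TTNCNNAA, and to the PU.1 motif GAGGAA. The reverse complement of the latter reads TTCCTC, and no matches overlap.
Camp: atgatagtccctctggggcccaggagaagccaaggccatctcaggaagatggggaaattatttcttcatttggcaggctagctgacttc
Ngp: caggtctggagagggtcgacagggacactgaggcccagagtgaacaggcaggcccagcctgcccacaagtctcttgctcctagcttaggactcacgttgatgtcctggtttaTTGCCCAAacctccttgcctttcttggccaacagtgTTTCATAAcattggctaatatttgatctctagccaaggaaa
Ltf: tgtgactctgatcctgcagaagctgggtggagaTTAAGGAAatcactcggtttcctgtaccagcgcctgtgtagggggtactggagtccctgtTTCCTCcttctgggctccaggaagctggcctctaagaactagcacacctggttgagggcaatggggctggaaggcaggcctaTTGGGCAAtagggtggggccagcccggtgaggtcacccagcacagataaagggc
The Camp stretch of 89 bases held neither motif. The Ngp stretch of 189 bases held 2 C/EBP matches, TTGCCCAA and TTTCATAA, and the Ltf stretch of 229 bases held 2 C/EBP matches, TTAAGGAA and TTGGGCAA, and 1 PU.1 match, TTCCTC. Among 32851 promoters, the first 89, 189 and 229 bases of a 250-base window were searched, the lengths shown for Camp, Ngp and Ltf. These bases need not lie just before the start site of each gene. A C/EBP match was held by 16.75%, 31.1% and 35.0% of promoters at these lengths, and a PU.1 match by 9.05%, 17.9% and 21.3%. The matches are letters in these windows and were not tested for binding.

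The values of the 3 genes chose the cells and are given as a description. In the summed UMIs of the granule cells, Camp was 2.98% and 2.53% of all gene UMIs in neonatal pools 1 and 2, Ngp 2.87% and 2.58%, and Ltf 0.949% and 0.912%. In the other neutrophils of the same pools Camp was 0.0135% and 0.0267%, while cells that were no neutrophils held 15.6 and 17.7 CPM of the 3 genes, a UMI of which was found in 6.69% and 7.67% of them at median depths of 4014 and 3910 UMIs. The adult neutrophil sums held 7 and 1 UMIs of Camp, 12 and 3 of Ngp and 0 and 0 of Ltf. Camp and Ngp thus stood close to each other and well above Ltf within the granule cells of both pools. Per cell, the share of the 3 genes ran from 1.19% to 12.2% with a median of 7.17% in pool 1 and from 1.06% to 13.8% with a median of 5.81% in pool 2. The cells just inside the threshold were at 1.06% and 1.19%, those just outside were neonatal cells at 0.946% and 0.905%, and the highest adult cell was at 0.365%. Ltf was absent from 1 granule cell in each pool, and Camp was the most abundant of the 3 genes in 45 and 55 cells, Ngp in 35 and 61 and Ltf in 2 and 2.

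**Figure D1:**
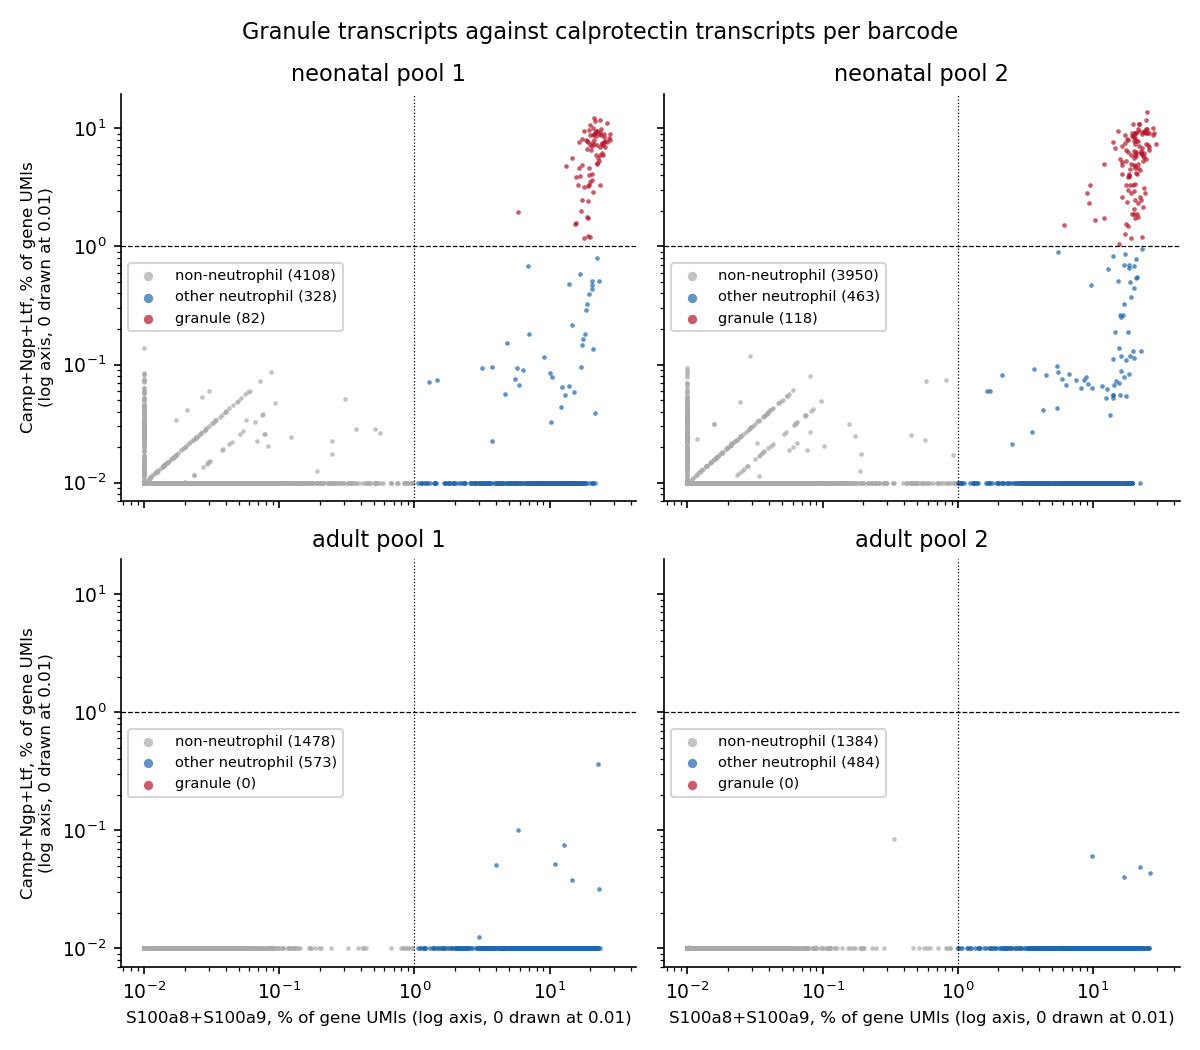
Share of gene UMIs from Camp, Ngp and Ltf (vertical, percent) against the share from S100a8 and S100a9 (horizontal, percent) in every kept barcode of each pool, on log axes with 0 drawn at 0.01; 1 point is 1 barcode and the lines mark 1%. The red points above the horizontal line are the 82 and 118 granule cells of the neonatal pools, and no adult barcode lies above 0.365%.

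How levels varied from cell to cell is described by Spearman's rho over the 82 and 118 granule cells of the 2 pools, which share their library and depth. Camp ran with Lcn2 at 0.50 and 0.57 and with Chil3 at 0.69 and 0.71. Its rho was 0.69 and 0.75 with Ngp and 0.47 and 0.55 with Ltf, the genes that chose the cells together with it. Against Retnlg it ran the opposite way at -0.67 and -0.72, and against Csf3r at -0.36 and -0.43. With Olfm4 there was little relation, at -0.08 and -0.02, nor with Cebpe, at -0.01 and 0.16. With the UMIs of the cell Camp ran at 0.35 and 0.18.

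S100a8 and S100a9 were used to choose the other neutrophils but not the granule cells, and are given without a test. S100a8 gave 7.55% and 7.32% of the UMIs of the granule cells and 3.33% and 3.41% of those of the other neutrophils, and S100a9 12.9% and 12.4% against 5.57% and 5.57%. A neutrophil marker that neither rule used, Ly6g, the surface antigen that defines mouse neutrophils, was found in 68.3% and 68.6% of the granule cells, with median depths of 3423.5 and 3653 UMIs, and in 0.0243% and 0.101% of the cells that were no neutrophils, at 4014 and 3910 UMIs. Zbtb46, whose locus drives the YFP label, gave 1 and 2 UMIs in all granule cells, or 4.51 and 6.03 CPM, while 16.2% and 13.9% of the cells that were no neutrophils held it. The classical dendritic cell markers summed to 2650 and 784 CPM, against 23947 and 21345 CPM in the cells that were no neutrophils, and 1 granule cell in pool 1 had more than 0.5% of its UMIs from MHC class II genes. Markers of dendritic cells, the type named in the submitters' labels, were thus low in these barcodes.

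Markers of other cell types were mostly low in the granule cells. Eosinophil and basophil markers summed to 0 and 3.02 CPM, with 8 and 7 of the 8 markers at 0, and B cell markers to 0 and 6.03 CPM. The macrophage list summed to 2208 and 1613 CPM, against 149 and 130 in the other neutrophils, but most of this was Chil3, which is on the secondary granule list too, and 9 and 5 of its 11 markers were at 0, C1qa and C1qb in both pools. Classical monocyte markers summed to 1102 and 1028 CPM against 451 and 505, chiefly from Ly6c2, and F13a1, Fn1, Vcan and Ms4a4c were at 0 in pool 1. Nonclassical monocyte markers, at 321 and 594 CPM against 1127 and 1099, and erythroid markers, at 36.1 and 45.2 against 1628 and 59.9, were higher in the other neutrophils. NK and T cell markers summed to 63.2 and 99.5 CPM against 74.3 and 75.5, and those of endothelial, epithelial and stromal cells to 13.5 and 27.1 against 37.1 and 27.4. The part of such cells in the results below was not tested. Of the 200 granule cells, 1 and 3 were predicted doublets and 1 and 0 carried both hashtags, and no barcode among them was shared between the loadings.

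The granule cells had more UMIs and more genes per cell than the other neutrophils, but fewer genes at equal depth. Their median UMIs of 3423.5 and 3653 stood against 1466.5 and 1506 in the other neutrophils, and their median genes of 1063 and 1058 against 698.5 and 721. After thinning each cell to 1000 UMIs the order was the opposite, with 403 and 404 genes in the granule cells and 541 and 538 in the others. The minimum of 1000 UMIs lay near the bulk of the other neutrophils, of which 80.5% and 81.9% had fewer than 2000 UMIs, against 8.54% and 7.63% of the granule cells. Transcript levels below are therefore shares of the RNA captured, and a lower share and less RNA per cell cannot be told apart.

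By age, 82 of 4518 kept cells (1.81%, exact 95% binomial interval 1.45% to 2.25%) and 118 of 4531 (2.60%, 2.16% to 3.11%) were granule cells in the neonatal pools, a mean of 2.21% ± 0.558 (SD, n = 2). The adult pools held 0 of 2051 and 0 of 1868, which allows shares of up to 0.146% and 0.161% when 3 counts are taken as the limit and up to 0.180% and 0.197% by the exact 95% interval. As a share of all neutrophils the neonatal values were closer to each other, at 20% (82 of 410, 16.2% to 24.2%) and 20.3% (118 of 581, 17.1% to 23.8%), while 0 of 573 and 0 of 484 adult neutrophils allow up to 0.524% and 0.620% by the limit of 3 counts and up to 0.642% and 0.759% by the exact interval. Both neonatal pools stood above both adult pools. The cells were chosen knowing them to be almost wholly neonatal, so this is a description and no test is given. Intervals and limits cover counting error only.

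The granule cells were then compared with the other neutrophils of the same neonatal pools, by summing UMIs per pool and class, leaving out Camp, Ngp, Ltf, S100a8 and S100a9, and fitting edgeR's quasi-likelihood test with the pool as a block. A gene was called at a Benjamini-Hochberg adjusted p of at most 0.05. Because the classes were split by transcripts of the same libraries, the adjusted p says only how the difference compares with its variation between pools. Pool differences that both classes share were taken out by the block, and the variation was estimated with the help of all genes. Of 4838 genes tested, 25.1% were called, 12.8% (619) higher and 12.3% (597) lower in the granule cells, with a median log2 difference of -0.01 over all genes. Fewer genes were called without pool 1 or pool 2, and DESeq2 called 345 in all. To leave out a pool, the sums of the adult other neutrophils were added and the pool was no block. The spread in those fits came from the adult sums alone. All values between the classes without pool 1 or pool 2 rest on such fits. A stricter cell filter of at least 1000 genes and 2000 UMIs leaves 35 and 42 other neutrophils, and its values are given where they differ.

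Secondary granule genes were higher almost throughout. Leaving out the 3 defining genes, 21 of 22 tested members of the list were called higher and 0 lower. The median log2 difference was 2.26, against -0.01 over all genes, of which 12.8% were called higher and 12.3% lower. Orm1, Abca13 and Chil3 held only 0, 3 and 10 UMIs in the other neutrophils. They passed the filter on low counts through the granule class, so they could hardly be called lower. With Orm1 at its lower bound the median is the same, and 19 to 21 members were higher and 0 lower under each alternative tried. Lcn2, the siderophore-binding protein of this granule, was at 17728 and 15209 CPM in the granule cells of pools 1 and 2, and the other neutrophils had 635 and 787 CPM. The groups did not overlap, and the log2 difference was 4.76 ± 0.14 (SE, edgeR's quasi-likelihood test, adjusted p = 1.62e-08). Chil3, a chitinase-like protein, was at 2126 and 1484 CPM against 3.71 and 10.4, a log2 difference of 8.01 ± 0.25. Orm1, an acute-phase glycoprotein, gave 126 and 60.3 CPM against 0 UMIs in either pool of the others, at least 37.8-fold higher (3 counts over the group). Cd177, a neutrophil surface glycoprotein that binds proteinase 3, was at 1061 and 889 CPM against 44.6 and 59.9, a log2 difference of 4.40 ± 0.19. The gene for the collagenase Mmp8 differed less, at 2144 and 2476 CPM against 512 and 617, which is 2.26 ± 0.11 on the log2 scale. Tcn2, the cobalamin carrier, was the 1 tested member that was not called, at 0.49 (adjusted p = 0.187).

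Other members of the secondary granule list ran in the same direction. The membrane subunit of the oxidase, Cybb, was at 2257 and 2189 CPM against 407 and 326, a log2 difference of 2.84 ± 0.12, but its adjusted p in edgeR's quasi-likelihood test was 0.0756 and 0.171 when pool 1 or pool 2 was left out. Abca13, a lipid transporter, had a raw ratio of 63.8 with a counting interval of 21.1 to 316, since the other neutrophils held 3 UMIs. Anxa1, an annexin, differed by 2.76, Itgb2l, a beta-2-like integrin, by 3.60, and Ifitm6 by 3.31. Smaller differences were those of Lyz2 (lysozyme) at 1.71, Pglyrp1 (a peptidoglycan recognition protein) at 1.19 and Lrg1 at 0.47, all called.

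**Figure D2:**
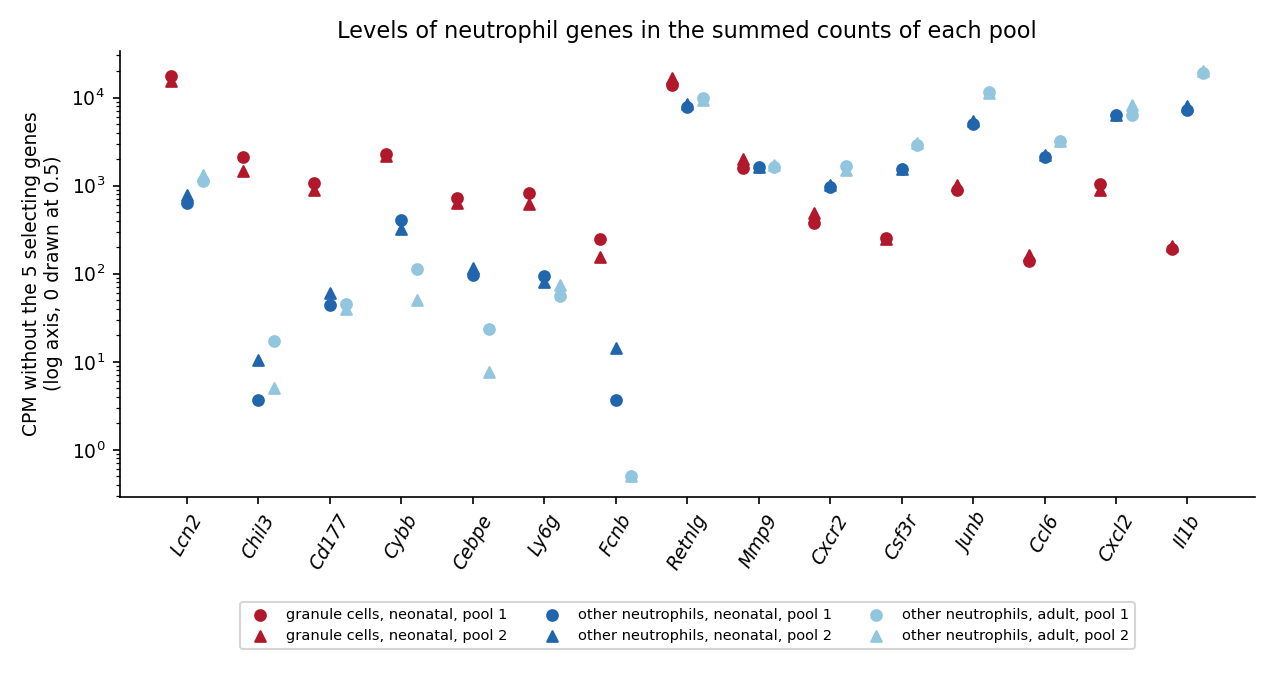
Levels of 15 neutrophil genes in the 6 summed counts, as CPM without Camp, Ngp, Ltf, S100a8 and S100a9 on a log axis with 0 drawn at 0.5; circles are pool 1, triangles pool 2, and colours mark granule cells, other neonatal and other adult neutrophils. The granule cells stand above the other sums for Lcn2, Chil3, Cd177, Cybb, Cebpe, Ly6g and Fcnb, and below them for Cxcr2, Csf3r, Junb, Ccl6, Cxcl2 and Il1b.

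Transcripts of the main primary granule enzymes were at or near 0. Mpo (myeloperoxidase), Elane (neutrophil elastase) and Ctsg (cathepsin G) had 0 UMIs in both granule sums, Prtn3 had 1 UMI in pool 2, and the promyelocyte gene Ms4a3 had 4 and 3 UMIs. In the other neutrophils Mpo had 0 and 1, Elane 0 and 11 (in 1 cell), Prtn3 1 and 16 and Ms4a3 0 and 0 UMIs, so these genes were low in both classes. The 12 primary granule genes in the file summed to 3873 and 3920 CPM in the granule cells, where 8 had UMIs in each sum, and to 7875 and 7668 CPM in the other neutrophils. Of the 5 tested members of the primary granule list, Serpinb1a, an inhibitor of the granule proteases, was higher at 609 and 576 CPM against 7.43 and 11.7 (log2 6.08 ± 0.24), and Srgn, the granule proteoglycan serglycin, was lower by 2.18 on the log2 scale. Genes of gelatinase granules and secretory vesicles were mixed, with 8 of 17 higher and 5 lower, against 12.8% and 12.3% of all genes. Mmp9 (gelatinase) differed by 0.37 and Mmp25 by 1.98, while Cd14 was at -1.71, although it was at -0.39 (edgeR's quasi-likelihood test, adjusted p = 0.391) at the stricter cell filter. Retnlg, a resistin-like protein, was at 13796 and 16508 CPM against 7819 and 8542 (1.11 ± 0.08), but with granule cells taken only from 5% upwards the difference was 0.12 (adjusted p = 0.349).

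Genes of immature myeloid cells were higher more often than lower, with 9 of 13 tested members higher, 2 lower and a median of 1.32. Over all genes 12.8% were called higher and 12.3% lower. Like the other lists, this one was chosen with earlier results of these data known, so its counts are a description. Fcnb, a ficolin of the early neutrophil stages, was at 248 and 154 CPM against 3.71 and 14.3 (log2 4.47 ± 0.42), and was found in 25.6% and 17.8% of the granule cells against 0.610% and 0.864% of the others and 0.901% and 0.810% of cells that were no neutrophils. The share in the other neutrophils lay close to that in cells that were no neutrophils, but at lower median depths of 1466.5 and 1506 against 4014 and 3910 UMIs. Whether it reflects expression was not tested. Tmem216, a protein of the ciliary transition zone, differed by 4.93, Adpgk, an ADP-dependent glucokinase, by 3.24 and Mgst2, a microsomal glutathione transferase, by 3.14. Fcnb and Tmem216 held only 13 and 5 UMIs in the other neutrophils. They passed the filter on low counts through the granule cells, so they could hardly be called lower. The lower members included the integrin Itga4 at -2.07. Kit, Cd34, Flt3, Myb and Gfi1 were too low to be tested.

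Outside the lists, the strongest differences included further genes. Zmpste24, the metalloprotease that matures prelamin A, was at 515 and 295 CPM against 3.71 and 14.3, a log2 difference of 5.46 ± 0.37. Olfml2b was at 99.3 and 127 CPM against 5.57 and 3.91 (4.78). For Pde4d, a cAMP phosphodiesterase, the raw ratio was 44.9 (counting interval 11.6 to 384), and for the ETS factor Erg it was 37.8 (9.64 to 325), both over 2 UMIs in the other neutrophils.

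**Figure D3:**
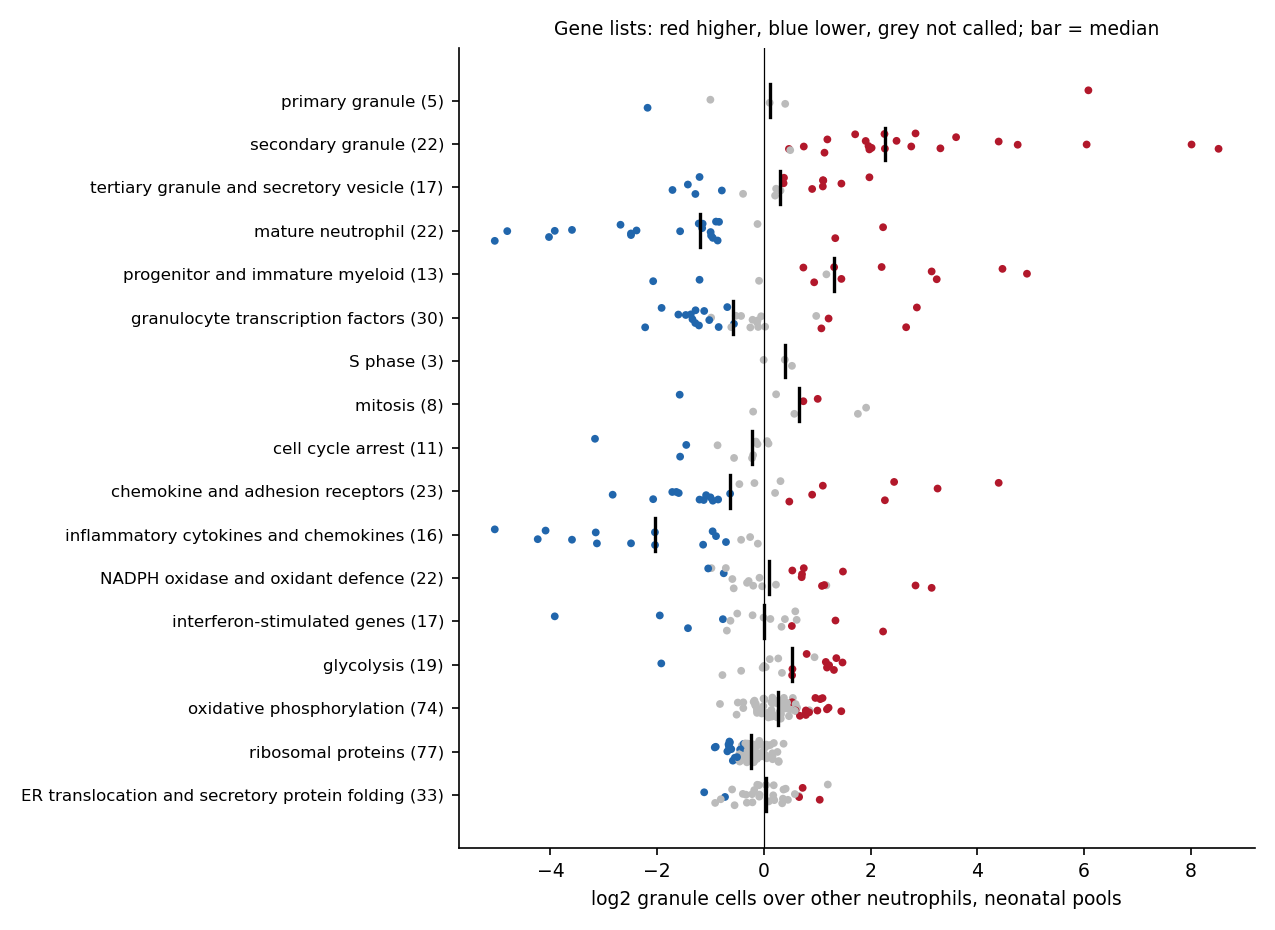
Log2 difference between granule cells and other neutrophils of the neonatal pools for each tested gene (1 point), by list, with the number tested in brackets; red was called higher, blue lower, grey not called, and the bar is the list's median. The secondary granule list lies to the right with 21 of 22 called higher, among them Orm1, Abca13 and Chil3, which could hardly be called lower. The mature neutrophil and inflammatory lists lie to the left with 19 of 22 and 13 of 16 called lower. Genes with few UMIs in the granule cells, such as Fgl2 of the mature list, could hardly be called higher. Over all genes 12.8% were called higher and 12.3% lower.

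Among granulocyte transcription factors 4 of 30 were higher and 14 lower, with a median of -0.59. Over all genes 12.8% were higher and 12.3% lower, so the count of higher factors lies near the general share. Cebpe was at 718 and 630 CPM against 96.5 and 116, without overlap, a log2 difference of 2.87 ± 0.17 (edgeR's quasi-likelihood test, adjusted p = 4.27e-07). The other 3 that were higher were Ets1 at 2.67, the cell cycle factor E2f2 at 1.21 and Max, the partner of Myc proteins, at 1.08. Among the lower members were Junb, an AP-1 subunit, at 898 and 1004 CPM against 5024 and 5391 (-2.22 ± 0.10), Fos at -1.46 and Cebpb at -1.34. At the stricter cell filter Fos was at -0.31 (adjusted p = 0.229), and 4 factors were higher and 8 lower. Spi1, which encodes PU.1, was at 0.02 ± 0.12 (adjusted p = 0.914).

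Receptor genes went both ways. Of 23 tested chemokine and adhesion receptors, 7 were higher and 12 lower, against 12.8% and 12.3% of all genes. Ly6g was at 831 and 618 CPM against 94.7 and 80.8 (log2 3.26 ± 0.16), Ly6c2 differed by 2.44, and Ltb4r1, the leukotriene B4 receptor, by 2.27. Csf3r, the receptor of granulocyte colony-stimulating factor, which is on the mature neutrophil list, was at 253 and 250 CPM against 1543 and 1537 (-2.39 ± 0.13), and the chemokine receptor Cxcr2 was at 379 and 494 against 971 and 1020 (-0.96 ± 0.13). Cxcr4, which retains neutrophils in the marrow, was lower too, at -1.13. At the stricter cell filter 7 receptors were higher and 4 lower.

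Inflammatory and mature-cell transcripts were the main lower groups. Of 16 tested cytokine and chemokine genes 13 were lower and 0 higher, with a median of -2.04. Of 22 mature neutrophil genes 19 were lower and 2, Stfa2l1 and Slfn4, higher. Over all genes 12.3% were lower and 12.8% higher. Il1b, encoding interleukin-1 beta, was at 190 and 208 CPM in the granule cells and 7274 and 8061 CPM in the other neutrophils, a log2 difference of -5.04 ± 0.12 (edgeR's quasi-likelihood test, adjusted p = 9.12e-10). An Il1b UMI was found in 14.6% and 17.8% of the granule cells and in 91.8% and 91.4% of the other neutrophils. Of cells that were no neutrophils 20.1% and 20.9% held it, at median depths of 4014 and 3910 UMIs against 3423.5 and 3653 in the granule cells. Whether those cells express Il1b was not tested, so their share is not taken as a background level. The monocyte attractant Ccl2 had 0 UMIs in the granule cells and 66.8 and 79.5 CPM in the others, at least 13.7-fold lower. Fgl2, on the mature neutrophil list, held only 7 UMIs in the granule cells. Ccl2 and Fgl2 passed the filter on low counts through the other neutrophils, so they could hardly be called higher. Cxcl2, a neutrophil attractant, was at 1029 and 899 CPM against 6251 and 6373 (-2.49 ± 0.11). Ccl6 stood at 140 and 163 CPM against 2089 and 2216 (-3.60 ± 0.14), and Ptgs2, the inducible cyclooxygenase, was at -4.09. Few UMIs were found of St3gal6, a sialyltransferase, with a raw ratio of 67.3 (counting interval 18.5 to 558), and of the surface protein Cd101 with 23.9 (6.47 to 200). At the stricter cell filter the mature list had 8 lower and 3 higher and the inflammatory list 7 of 11 lower and 0 higher.

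Among metabolic and translation genes, the counts for oxidative phosphorylation and ribosomal proteins depended on which cells were taken. The shares over all genes, beside which these counts stand, were 12.8% higher and 12.3% lower. Oxidant genes had 9 of 22 higher and 2 lower, among them the oxidase subunits Cybb, Ncf1 at 1.13 and Ncf4 at 0.71. Glycolysis had 9 of 19 higher and 1 lower, with Ldha at 1.16 and Pgk1 at 1.22, and the lower member was the glucose transporter Slc2a1 at -1.92. Oxidative phosphorylation had 15 of 74 higher and 0 lower (median 0.27), with 2 and 4 higher without pool 1 or pool 2 and 1 with DESeq2, but 0 higher and 1 lower of 69 (median -0.28) at the stricter cell filter. Ribosomal protein genes had 15 of 77 lower and 0 higher (median -0.25). With other neutrophils defined by at least 5% of S100a8 and S100a9, 23 were higher and 1 lower (median 0.25), and at the stricter cell filter 67 were lower and 0 higher (median -1.13), so that no direction is given for ribosomal protein genes.

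Few granule cells held transcripts of proliferation genes. Mki67, the proliferation antigen, was at 194 and 57.3 CPM against 13 and 52.1, so that the classes were far apart in pool 1 and close in pool 2, and the log2 difference of 1.92 ± 1.17 was not called (edgeR's quasi-likelihood test, adjusted p = 0.409). It was called at 4.01 without pool 2, at 3.64 against other neutrophils with at least 5% of S100a8 and S100a9, and at 2.22 for granule cells from 5% upwards. A UMI of Mki67 or Top2a was found in 7 of 82 (8.54%) and 6 of 118 (5.08%) granule cells, 2.74% and 2.38% of the other neutrophils and 13.6% and 11.8% of cells that were no neutrophils. After thinning to 1000 UMIs the shares were 6.1% and 1.69%, 0.915% and 1.51%, and 5.82% and 4.91%. None of the 3 tested S phase genes was called, 25 of the 28 being too low to test, and of 8 tested mitosis genes Hmgb2 and Smc4 were higher and Kif23 lower. Those calls did not hold throughout: 0 mitosis genes were higher and 1 lower without pool 1, 4 and 0 without pool 2, and 0 and 0 at the stricter cell filter, and Smc4 was at -0.026 after thinning. DESeq2 called neither Smc4 nor Kif23. The growth arrest genes Btg1 (-1.57), Btg2 (-1.45) and Gadd45b (-3.16) were lower, and Btg1 and Btg2 lost their calls at the stricter cell filter (adjusted p = 0.0610 and 0.0519). At that filter 3 genes of the growth arrest list were higher and 1 lower.

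The stefin genes, small inhibitors of cysteine proteases that lie in a cluster on chromosome 16, were picked out after their values were seen. They are near-identical copies, so that reads may be split among them and single values are uncertain. Together, 12 of them gave 14.4% and 14.6% of all gene UMIs of the granule cells, 5.92% and 6.18% of those of the other neonatal neutrophils and 0.115% and 0.167% of those of the adult neutrophils. Stfa3 was at 18686 and 18281 CPM against 1482 and 1818 in the other neonatal neutrophils (log2 3.72 ± 0.11), and Stfa1 at 56833 and 58082 against 24295 and 24313 (1.47 ± 0.08). Csta3 was lower, at -0.73. Between ages, Stfa2 was at 6086 and 6514 CPM in the neonatal other neutrophils against 3.23 and 11.4 in the adult ones (log2 9.62 ± 0.24). Csta2 was at 2426 and 2640 against 3.23 and 2.54 (9.53 ± 0.16). Both were called, over 12 and 5 UMIs in the adult sums. Adult neutrophils had 47.4 and 148 CPM of Stfa1, a log2 difference of 7.84 ± 0.70 to the other neonatal neutrophils (edgeR's quasi-likelihood test, adjusted p = 0.0279). That call was lost without neonatal pool 1 (adjusted p = 0.223), without neonatal pool 2 (0.234) and without the filter on low counts (0.071).

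The share of the 3 defining genes ran over a range within the granule cells, and the transcripts of other genes ran with it. The cells were parted at 5% after the values were seen, giving 28 and 50 cells below and 54 and 68 at or above it, and these values carry no test. Of 776 genes with at least 200 CPM, 167 were higher and 281 lower in both pools of the richer cells, while 328 overlapped. Zmpste24 went from 13.7 and 14.5 CPM in the poorer cells of pools 1 and 2 to 760 and 496 in the richer, a ratio of means of 44.5. Fcnb went from 13.7 and 7.24 to 363 and 258 (29.6), and Chil3 from 329 and 268 to 3007 and 2351 (8.97). For Serpinb1a the ratio was 2.94, for Lcn2 1.96, for Ly6g 1.65 and for Cebpe 1.52. Each of these genes was higher in the richer cells of both pools.

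Other genes ran the opposite way within the granule cells. Retnlg went from 28390 and 27844 CPM in the poorer cells to 6646 and 8417 in the richer, a ratio of 0.268, Cxcl2 from 2485 and 1470 to 316 and 491 (0.204), and Ccl6 from 275 and 282 to 74.0 and 77.5 (0.272). The receptors Csf3r (371 and 333 to 195 and 191) and Cxcr2 (659 and 615 to 242 and 408) did so too, with ratios of 0.549 and 0.510. The granule enzymes Mmp8 and Mmp9 had ratios of 0.671 and 0.732. Over 4 steps of the share, from 1% to 2%, 2% to 5%, 5% to 8% and from 8%, holding 23, 55, 67 and 55 cells, Retnlg stood at 28981, 27578, 11501 and 3130 CPM, Lcn2 at 6448, 12197, 16223 and 24093 and Mmp8 at 2500, 3121, 2437 and 1460. Median UMIs over these steps were 2890, 3127, 3714 and 4001, and their part in the pattern was not tested. Il1b was low in both kinds of cell, at 178 and 181 and at 195 and 227 CPM. Cd74, an MHC class II chaperone, had a ratio of 0.138 with the cell of high MHC class II included and 0.953 without it.

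**Figure D4:**
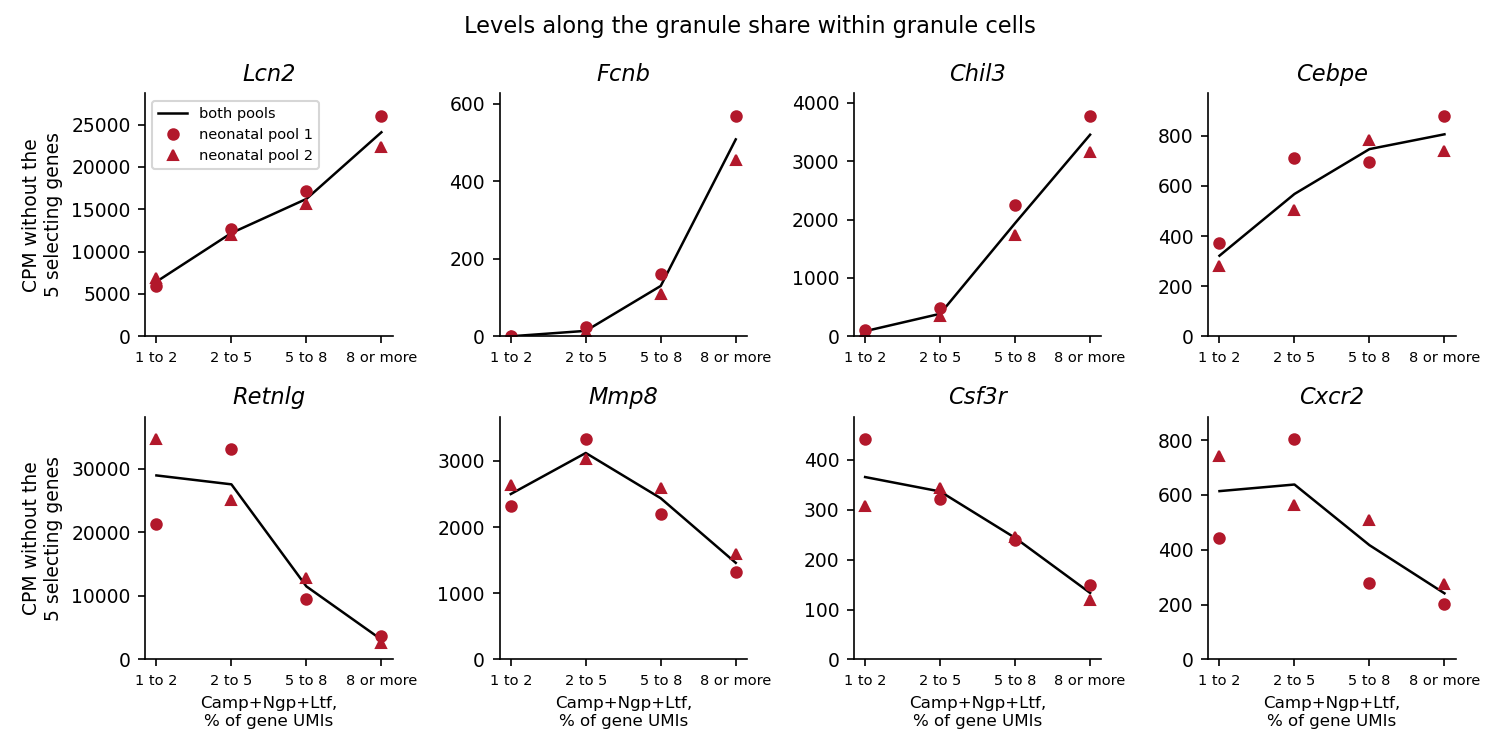
CPM (without the 5 genes of the rules) of 8 genes in granule cells grouped by their share of Camp, Ngp and Ltf UMIs, with circles for pool 1, triangles for pool 2 and the line for both pools summed. Lcn2, Fcnb and Chil3 are highest at the largest shares in both pools, Cebpe in pool 1 and on the summed line but not in pool 2, and Retnlg is at 28981 CPM in the lowest group and 3130 CPM in the highest.

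Olfm4, olfactomedin 4, marks a subset of neutrophils and is a product of the secondary granule, but it was found in only part of the granule cells. It was at 1558 and 1891 CPM in the granule cells and 327 and 393 in the other neutrophils, without overlap (log2 2.49 ± 0.12, edgeR's quasi-likelihood test, adjusted p = 6.82e-08). A UMI of it was found in 28 of 82 (34.1%) and 47 of 118 (39.8%) granule cells, 59 of 328 (18.0%) and 99 of 463 (21.4%) other neutrophils, and 0.292% and 0.430% of cells that were no neutrophils. After thinning to 1000 UMIs the first 2 pairs were 30.5% and 38.1% and 12.5% and 15.3%. Where it was present it was plentiful: 25 of the 28 and 43 of the 47 granule cells had 5 or more UMIs and 1 in each pool had exactly 1, with medians of 11.5 and 12 and maxima of 26 and 31. In the other neutrophils the median of cells with it was 2 and the maximum 14. The granule share of cells with and without Olfm4 was alike, with medians of 6.89% and 7.26% in pool 1 and 5.82% and 5.70% in pool 2. Lcn2, by contrast, was found in 100% of the granule cells and 1.92% and 1.59% of cells that were no neutrophils. The division by Olfm4 was looked at after the values were seen, and no test was made.

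**Figure D5:**
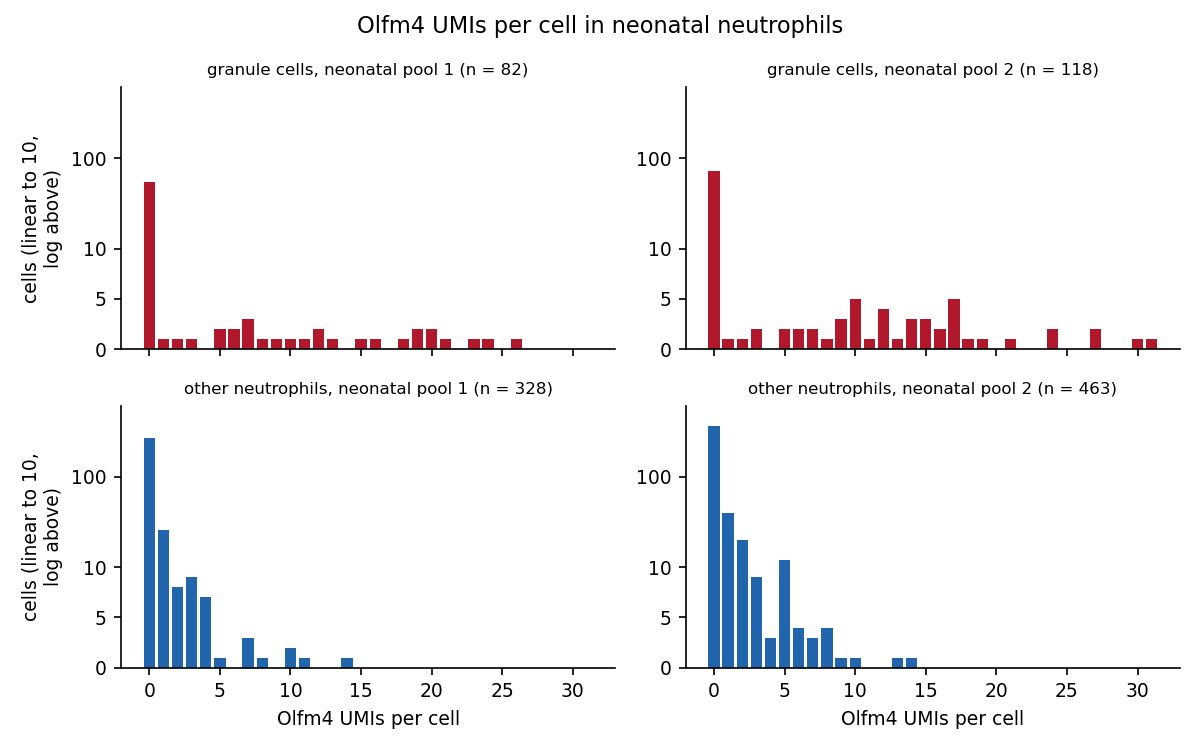
Number of cells (vertical, linear to 10 and log above) by Olfm4 UMIs per cell (horizontal) in granule cells and other neutrophils of the 2 neonatal pools. Granule cells with Olfm4 spread up to 26 and 31 UMIs, 25 and 43 of them with 5 or more, while the other neutrophils reach 14.

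Between ages, all neutrophils (granule cells and others together) were summed per pool and compared, and 36.4% of 6135 genes were called, 18.1% higher and 18.3% lower in the neonatal pools. The 3 defining genes are given without a test. Ltf was at 3719 and 3660 CPM in the neonatal pools against 0 UMIs in both adult pools, at least 2106-fold higher (3 counts over the group), Camp at 11730 and 10216 against 7.54 and 1.27, and Ngp at 11299 and 10379 against 12.9 and 3.82. Of 22 tested secondary granule genes besides those 3, 19 were higher and 1, Lrg1, lower, with a median of 1.52. The neonatal sums hold the 82 and 118 granule cells and the adult sums hold 0. Genes that are high in granule cells were thus favoured by the choice of cells, and these values are a description. Lcn2 was at 5466 and 5013 CPM against 1136 and 1319 (log2 2.00 ± 0.06). Olfm4 was at 667 and 825 against 11.8 and 12.7 (5.82 ± 0.17), and Cebpe at 270 and 264 against 23.7 and 7.63 (3.94 ± 0.21). Fcnb had 0 UMIs in adult neutrophils. Mature neutrophil genes were lower in 19 of 23 and higher in 1.

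With the granule cells left out, secondary granule genes were still higher in the neonatal pools more often than lower. Among other neutrophils, 25.2% of 6050 genes were called, 12.3% higher and 12.9% lower in the neonatal pools, and of 19 tested secondary granule genes 11 were higher and 2 lower, with a median of 0.30. Olfm4 was at 327 and 393 CPM against 11.8 and 12.7 (log2 4.71 ± 0.21, edgeR's quasi-likelihood test, adjusted p = 7.59e-14) and was found in 1.92% and 1.65% of adult neutrophils. Lcn2 was lower, at 635 and 787 CPM against 1136 and 1319 in the adult pools (-0.94 ± 0.10), and was found in 28.4% and 31.5% against 48.5% and 48.6% of cells, though at the stricter cell filter its difference was 0.25 (adjusted p = 0.742). Cebpe was higher in the neonatal pools (2.56 ± 0.31). Mature neutrophil genes were lower in 19 of 23 and higher in 1 here too, with a median of -0.83. The 2 age comparisons share their adult pools and the neonatal other neutrophils enter both the class and the age comparison, so that their values are set side by side only.

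Interferon-stimulated genes were mostly lower in the neonatal pools. In the other neutrophils 18 of 26 tested members were lower and 1 higher in the neonatal pools, with a median of -1.12. Of all genes in that comparison 12.9% were lower and 12.3% higher. Isg15, a ubiquitin-like modifier, was at 49.7 and 69.3 CPM in the granule cells, 48.3 and 62.5 in the other neonatal neutrophils and 369 and 460 in the adult neutrophils, a log2 difference of -3.03 ± 0.16 between the ages in the other neutrophils. Between granule cells and other neonatal neutrophils 3 of 17 were higher and 4 lower, against 12.8% and 12.3% of all genes. The median was -0.006, so the list as a whole showed no direction between the classes, although Ifitm1 was at -3.92. Il1b was likewise lower in neonatal other neutrophils, at 7274 and 8061 CPM against 18995 and 19993 (-1.50 ± 0.06). Markers of other cell types moved with age as well. Those of NK and T cells were at 74.3 and 75.5 CPM in the neonatal and 518 and 320 in the adult other neutrophils. Tested markers of classical monocytes (4 of 4), nonclassical monocytes (6 of 7) and classical dendritic cells (5 of 10) were higher in the neonatal other neutrophils, with 0 lower. The part of such cells in these differences was not tested.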

How the data were processed

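The authors deposited unnormalised UMI counts for 14710 barcodes, 32285 genes and 2 hashtag features in a single matrix. Cell Ranger 6.1.2, Seurat 4.2.0 and the mm10 build are named in the submitters' processing notes. Each barcode was given its pool by its suffix, as set out in the series' design text. Columns not used came to 0. Of 32285 gene identifiers, 32158 matched GENCODE M21. Between the ages 14 barcodes were shared, and 0 within an age.

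Members, lists and comparisons were chosen with earlier results of these data known. UMIs were summed per pool and class without Camp, Ngp, Ltf, S100a8 and S100a9, except that the first 3 were kept when all neutrophils were compared between ages. Summed UMIs were 221508 and 331654 for granule cells, 538660 and 767752 for other neonatal and 928417 and 786336 for other adult neutrophils. Low genes were removed with filterByExpr and TMM factors set the scale. In R 4.3.3, edgeR 4.0.16 (glmQLFit with robust fitting, then glmQLFTest) gave Benjamini-Hochberg adjusted p values with a threshold of 0.05. Between classes the pool was a block, since both sums come from the same animals, although the deviations of the 2 sums of a pool correlated at only -0.0887 over 4838 genes.

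A rule picked the 10 largest called changes in each direction (5 between ages) at 50 CPM or more with both pools the same way. It added up to 4 members per list by smallest p, and the marker genes. The text names only part of the genes so picked. Between classes Wfdc17, Csf1, Pla2g7 and Cass4, all lower, are left out, and between ages Gzma, Nkg7 and others are. Other list members are given for description. CPM, shares and exact binomial intervals were made in Python 3.11.15 with numpy 2.4.6, scipy 1.17.1 and pandas 2.3.3, and doublets were predicted per loading with Scrublet in scanpy 1.11.5 and kept. On simulated counts with 200 changed genes, the class comparison (4838 genes) recovered 38% of 2-fold and 76% of 4-fold changes, with 2 false calls among 4638 unchanged genes. The simulation had no pool effect, equal changes in both directions and far fewer changed genes than the 1216 called in the data. Its rate of false calls therefore need not hold for the data. Alternatives were other tools (DESeq2 1.42.0), filters, thresholds, thinning to 1000 UMIs per cell and leaving out each pool.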

Additional observations from a re-analysis of the deposited data

How the results depend on the processing

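The class comparison called 1216 genes. It called 345 with DESeq2, 642 among cells with at least 1000 genes and 2000 UMIs, 790 after thinning to 1000 UMIs per cell, and 623 to 715 without 1 neonatal pool. Without the pool as a replicate block it called 1405. All neutrophils between ages gave 2231, against 943 with DESeq2, 393 at the stricter cell filter, 1155 after thinning and 1113 to 1735 without 1 pool. Other neutrophils between ages gave 1522, against 564 with DESeq2, 104 at the stricter filter, 895 after thinning, 997 with at least 5% of S100a8 and S100a9, and 641 to 1200 without 1 pool. The mean neonatal share of granule cells was 2.21% of kept cells, 1.35% at a granule threshold of 5%, 1.61% at the stricter filter and 20.15% of all neutrophils, with 1.81% to 2.60% without 1 pool. Single genes that changed sign were Atp5o (-0.043) and Hsp90b1 (-0.25) between classes at the stricter filter, Smc4 (-0.026) after thinning, Rpsa (-0.29) between all neutrophils at the stricter filter, and Hmgb2 (0.17) and Lcn2 (0.25) between other neutrophils at that filter. Of the values of named genes under an alternative, 838 between classes kept direction and call, 58 lost the call, 18 gained it and 3 changed sign. The same counts were 785, 33, 0 and 1 for all neutrophils and 738, 75, 0 and 2 for other neutrophils between ages. Leaving out a pool leaves 1 sum that is assumed to vary like the rest. Between classes, that fit took in the adult other neutrophils and had no pool block. The stricter filter leaves fewer cells and genes, and otherwise the cause was not tested. With 2 pools per age, the precision is limited by their number, and age, loading and sex of the animals cannot be told apart.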
